A study of Mus musculus with 18 samples.

Results

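The AMPA and kainate receptor subunits are 9 genes, Gria1 to Gria4 and Grik1 to Grik5, picked by name from the tables of read counts. All 9 were listed in both tables, among 18389 genes in hippocampus and 18235 in cortex. Messenger RNA came from mouse hippocampus and mouse cerebral cortex, each vitrified, snap-frozen or fresh. In vitrification, tissue soaked in concentrated cryoprotectants is cooled to a glass in which no ice forms. Vitrified pieces went through 25%, 50%, 75% and 100% of a solution of ethylene glycol (28 wt%), DMSO (22.3 wt%), sucrose and phosphate-buffered saline, for 5 min a step. They were cooled in liquid nitrogen, stored for 4 days at -80 °C, rewarmed at 37 °C and washed free of the agents in steps. Snap-frozen pieces went straight into liquid nitrogen, and fresh pieces had no treatment. Each of the 6 groups had 3 libraries, 18 in all. The labels give no strain, age, sex or animal, so the spread between the libraries of a group may be technical, and p-values measure that spread alone.

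AMPA and kainate receptors are glutamate-gated cation channels, each built from 4 subunits that line a common pore. AMPA receptors, of Gria subunits, carry most fast excitatory transmission in the brain, and in pyramidal cells of the hippocampus pairings of Gria1 with Gria2 and of Gria2 with Gria3 prevail. Kainate receptors act on both sides of the synapse: Grik1 to Grik3 can form channels alone, whereas Grik4 and Grik5 bind agonist tightly and need one of those 3 as a partner. Mossy fibre synapses on pyramidal cells of the CA3 field are rich in Grik2, Grik4 and Grik5.

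The pore loop holds a place where RNA editing acts. Deaminases of the ADAR family change 1 adenosine of a glutamine codon in transcripts of Gria2, Grik1 and Grik2, so that arginine is built in. In Gria2 this makes the channel nearly impermeable to calcium. The 20 codons around that place are shown for the 4 AMPA receptor genes, from GENCODE M21 transcripts on GRCm38, 5′ to 3′ on the coding strand, with the glutamine codon in capitals.
Gria1: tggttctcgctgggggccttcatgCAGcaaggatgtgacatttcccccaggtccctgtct
Gria2: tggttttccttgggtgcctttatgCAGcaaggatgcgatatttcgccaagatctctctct
Gria3: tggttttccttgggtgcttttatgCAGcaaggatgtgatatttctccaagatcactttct
Gria4: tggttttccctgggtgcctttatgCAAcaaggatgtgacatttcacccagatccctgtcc

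The same 20 codons of the 5 kainate receptor genes are shown for comparison, again with the glutamine codon in capitals.
Grik1: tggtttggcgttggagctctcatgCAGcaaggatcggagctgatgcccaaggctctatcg
Grik2: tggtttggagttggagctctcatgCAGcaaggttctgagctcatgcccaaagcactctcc
Grik3: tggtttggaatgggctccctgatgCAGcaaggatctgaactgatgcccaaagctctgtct
Grik4: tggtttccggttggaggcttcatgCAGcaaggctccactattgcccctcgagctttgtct
Grik5: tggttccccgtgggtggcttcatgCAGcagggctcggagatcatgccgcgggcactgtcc

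The place was found by the run Met-Gln-Gln-Gly in each protein, so glutamine there in all 9 genes was set by the search. Its codon was CAG in 8 of them and CAA in Gria4. The shares of positions that follow include the codons of this run. Across the 60 bases, AMPA receptor genes shared 80.0% to 91.7% of positions with each other and kainate receptor genes 60.0% to 86.7%. Pairs of 1 AMPA and 1 kainate receptor gene shared 61.7% to 70.0%. In Gria2 the codon lay at chr3:80706911-80706913 on the minus strand, in exon 11 of 16. In Gria4 the codon lay at chr9:4464137-4464139 on the minus strand, in exon 12 of 17. In Grik2 the codon lay at chr10:49244329-49244331 on the minus strand, in exon 12 of 16. Counts per gene hold no base calls, so edited and unedited transcripts were counted together.

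Total counts ranged from 15725356 to 17480302 per library, and the 9 genes had from 166 counts (Grik1) to 21992 counts (Gria1) in a library. Every count of the 9 genes was a whole number. In each library 4.39% to 5.16% of all values were fractional, as happens where reads are divided between similar genes. Annotated genes that overlap the 9 lie on the same strand and are small RNAs, a pseudogene, sense intronic RNAs within Grik2 or transcripts still to be classified. Libraries of a group were alike, with a coefficient of variation beyond sampling noise of 1.69% in hippocampus and 2.71% in cortex, so small differences passed the test. In snap-frozen cortex replicate 3 was the exception: its chi-square per degree of freedom against replicates 1 and 2 was 3.89 and 3.57, against 1.22 to 1.60 for all other pairs of replicates.

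The tissue labels were set against region markers. Dentate gyrus granule cell markers summed to 381 to 384 CPM (counts relative to library size, TMM-scaled) in fresh hippocampus, against 95.1 to 104 CPM in fresh cortex. CA1 field markers summed to 784 to 798 CPM, against 462 to 472 CPM. Sums of CA3 and CA2 field markers lay closer, at 426 to 436 and 386 to 422 CPM. Of these 8 markers 7 passed as higher in fresh hippocampus and 1 as lower. Striatal markers summed to 111 to 122 CPM in fresh hippocampus, against 1401 to 1407 CPM in fresh cortex, and no listed marker of a region or cell type was at 0 in all libraries of a group. Snap-frozen hippocampus differed from the other hippocampal groups in region markers. Thalamic markers summed to 299 to 320 CPM in snap-frozen, against 70.3 to 77.9 CPM in vitrified and 86.2 to 88.9 CPM in fresh hippocampus. For snap-frozen against fresh hippocampus the median log2 fold change of all genes was 0.128 with library totals and -0.102 with offsets for GC content and length, against 0.009 with TMM scaling. Of the genes called there, 4578 were higher and 4458 lower with TMM, 6784 and 2867 with library totals, and 3310 and 6433 with the offsets. In bulk tissue fewer cells of a type and less RNA per cell cannot be told apart.

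Levels can be compared between genes only per length, as TPM (counts per kilobase of exon, scaled to the same total in each library). Gria1, the subunit whose insertion accompanies potentiation of hippocampal synapses, was the most abundant of the 9 in each hippocampal group, at 886 ± 13.6 TPM in vitrified, 541 ± 6.59 TPM in snap-frozen and 911 ± 9.39 TPM in fresh hippocampus (mean ± SD, n = 3). Gria2 followed, at 302 ± 5.34, 198 ± 2.71 and 267 ± 5.43 TPM. Grik5, the most abundant kainate receptor transcript, came next at 277 ± 1.84, 189 ± 1.05 and 261 ± 3.60 TPM in the same order of groups. In fresh hippocampus the libraries of Gria2 and Grik5 overlapped, so their order is not set.

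Below these stood Gria3, Grik4 and Gria4 in vitrified hippocampus, at 116 ± 1.80, 69.2 ± 1.32 and 46.8 ± 1.32 TPM, and in fresh hippocampus, at 105 ± 1.07, 63.3 ± 1.76 and 43.9 ± 1.33 TPM. Snap-frozen hippocampus had another order: Gria3 (79.3 ± 0.292 TPM) and Gria4 (78.4 ± 2.21 TPM) overlapped and Grik4 (32.5 ± 0.181 TPM) lay below both. Grik2 and Grik3 were between 22.4 and 30.1 TPM in the group means and overlapped in snap-frozen and fresh hippocampus. Grik1, in forebrain mostly a transcript of interneurons, was lowest in all 6 groups, at 6.97 to 8.68 TPM.

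Cortex had a flatter order. Gria1 was at 262 ± 5.51 TPM in vitrified, 288 ± 10.9 TPM in snap-frozen and 262 ± 2.01 TPM in fresh cortex. Grik5 was at 261 ± 5.26, 224 ± 12.1 and 246 ± 3.53 TPM, and overlapped Gria1 in vitrified cortex. Gria2, Gria3, Gria4 and Grik3 followed in each cortical group, with Grik3 at 51.4 ± 2.10, 44.3 ± 2.56 and 50.2 ± 0.989 TPM. Grik2 lay above Grik4 in vitrified and fresh cortex, and their libraries overlapped in snap-frozen cortex. Parts of this order, and of that in hippocampus, rest on the length used. With the longest transcript in place of all exons, Grik5 led in vitrified cortex (251 TPM, against 236 TPM for Gria2 and 215 TPM for Gria1) and in fresh cortex (237 TPM, against 215 TPM for Gria1), and Grik2 (25.1 TPM) passed Grik4 (24.8 TPM) in snap-frozen hippocampus. By that length Gria3 was at 113 TPM and Gria4 at 68.4 TPM in snap-frozen hippocampus. In fresh hippocampus Gria2 was then at 301 TPM and Grik5 at 250 TPM.

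The make-up of each family was read as each gene's share of the family's counts per kilobase. Gria1 made up 65.6% ± 0.292 of AMPA receptor transcripts in vitrified, 60.3% ± 0.340 in snap-frozen and 68.7% ± 0.449 in fresh hippocampus. Gria4, the subunit with fast kinetics that is known from interneurons, thalamus and brainstem, made up 3.47% ± 0.0937, 8.75% ± 0.240 and 3.31% ± 0.0760 in the same groups. The 3 snap-frozen libraries lay between 8.47% and 8.90%, above every vitrified and fresh library. Gria2 made up 22.4% ± 0.208, 22.1% ± 0.383 and 20.1% ± 0.399. With the longest transcript as length in place of all exons, the Gria2 share was 24.4% in fresh hippocampus, so the shares rest on the length used.

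In cortex Gria1 made up 37.2% ± 0.220 of AMPA receptor transcripts in vitrified, 45.2% ± 0.808 in snap-frozen and 41.5% ± 0.284 in fresh tissue, and these libraries did not overlap. Gria4 made up 13.9% ± 0.144, 12.5% ± 0.522 and 12.7% ± 0.410. Among kainate receptor transcripts Grik5 held 68.0% to 72.2% in all group means. Grik4 held 17.0% ± 0.219 in vitrified, 11.7% ± 0.0927 in snap-frozen and 16.8% ± 0.497 in fresh hippocampus, and 5.52% ± 0.460, 5.90% ± 0.543 and 4.76% ± 0.0447 in cortex. No test was run on shares: 3 libraries against 3 cannot go below p = 0.10 in an exact permutation test.

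**Figure D1:**
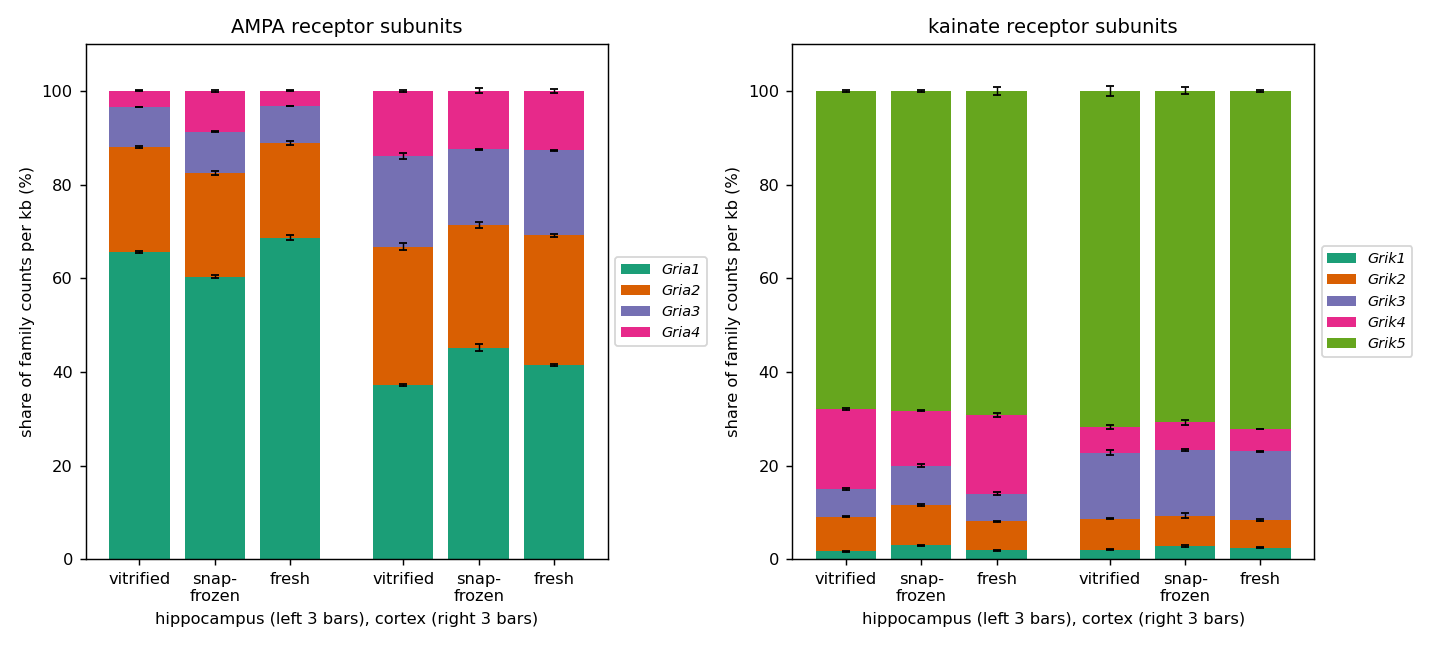
Shares of the AMPA (left) and kainate (right) receptor transcripts by gene, in percent of the family's counts per kilobase of exon, as stacked bars of group means (n = 3), with the SD of each gene's share drawn at the top of its segment. Gria4 takes 8.75% in snap-frozen hippocampus, against 3.47% in vitrified and 3.31% in fresh hippocampus, and Grik4 takes 11.7%, against 17.0% and 16.8%.

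Summed over the 4 genes, AMPA receptor transcripts were at 1350 ± 19.8 TPM in vitrified, 896 ± 5.87 TPM in snap-frozen and 1326 ± 10.9 TPM in fresh hippocampus. In cortex the sums were 706 ± 14.6, 637 ± 14.8 and 631 ± 5.92 TPM. Kainate receptor transcripts summed to 407 ± 3.80, 277 ± 0.664 and 377 ± 0.854 TPM in hippocampus and to 364 ± 6.31, 317 ± 14.5 and 341 ± 5.48 TPM in cortex. In hippocampus the snap-frozen libraries had the lowest sums of both families.

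**Figure D2:**
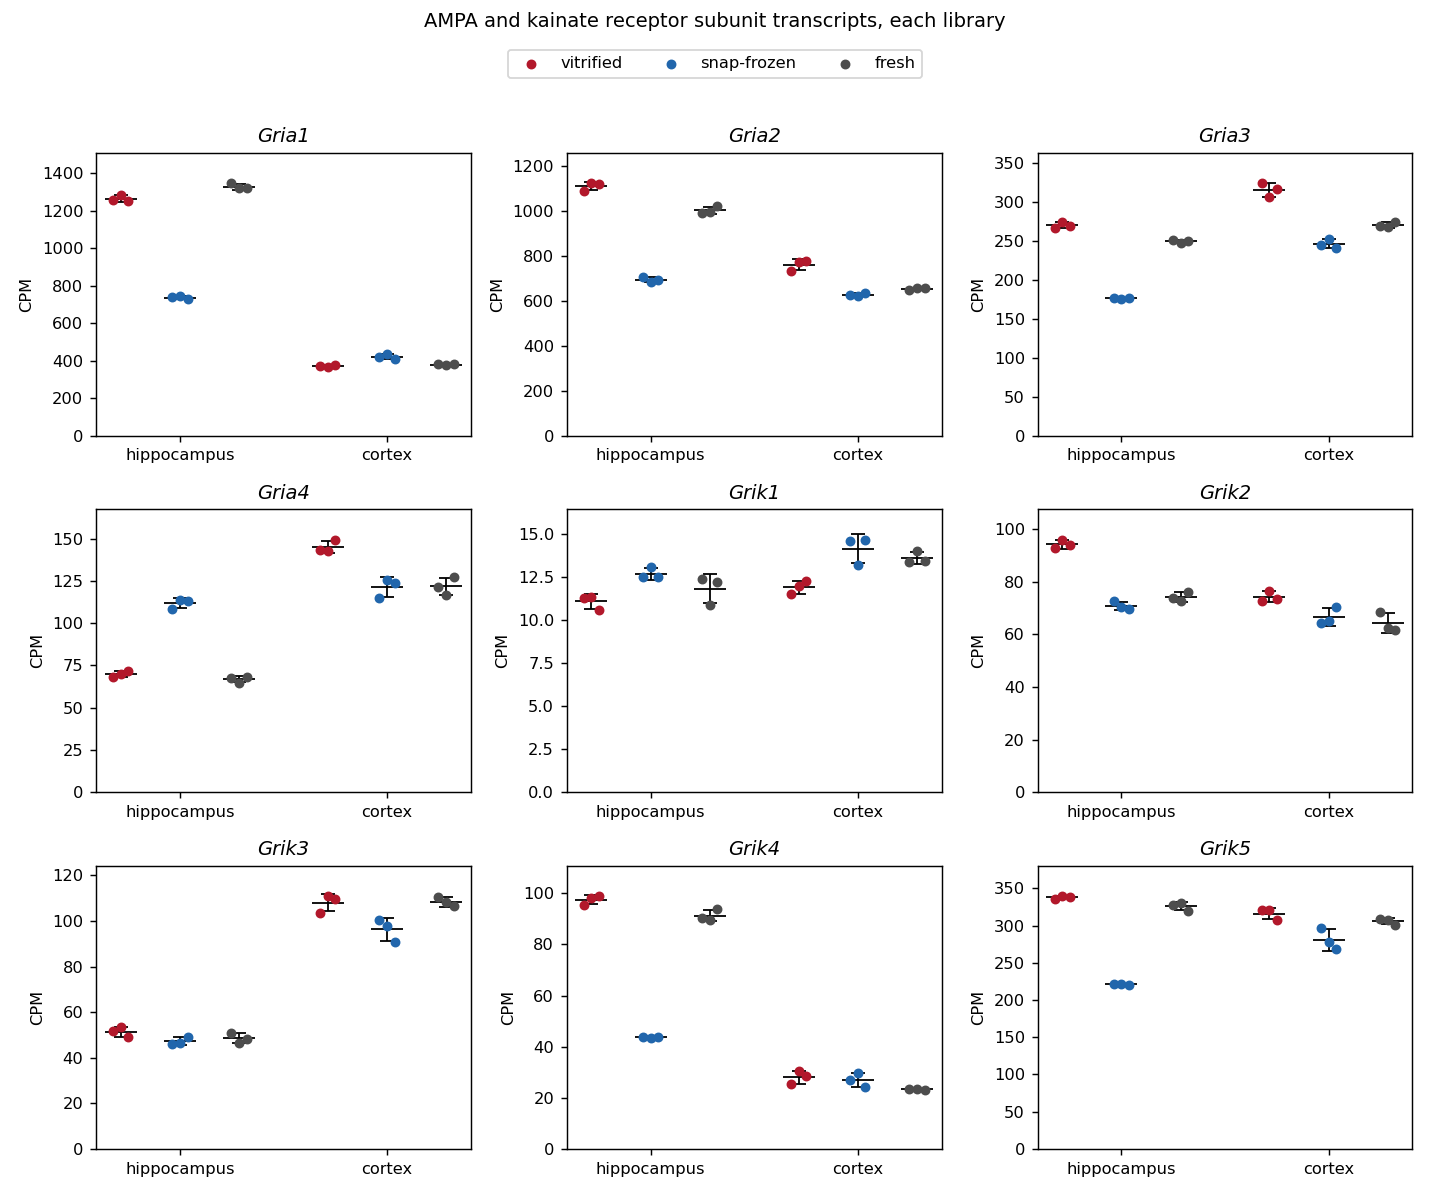
Level of each gene in every library, in CPM scaled by TMM over all 18 libraries, with 1 panel per gene; dots are libraries, long bars the group mean and whiskers the SD (n = 3). In hippocampus the snap-frozen libraries of Gria1, Gria2, Gria3, Grik4 and Grik5 lie below all vitrified and fresh libraries, and those of Gria4 lie above them.

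The first comparison asked which of the 9 transcripts differed between vitrified and fresh hippocampus. Grik2, Gria2, Gria3 and Grik4 rose and Gria1 fell in vitrified tissue, by at most 1.26-fold (Grik2); with library totals 7 rose and the call of Gria1 was lost. The background was large: by edgeR's quasi-likelihood test with Benjamini-Hochberg adjustment at 0.05, 49.1% of the 14528 genes tested passed, 23.8% higher and 25.3% lower. These were 3463 higher and 3672 lower genes, against 4806 and 2835 with library totals and 2413 and 4855 with offsets for GC content and length. The count of 5 of 9 is therefore near the share of all genes. The members' median log2 fold change was 0.07, against 0.01 over all genes, and their median size without sign was 0.08, against 0.16.

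Grik2, a pore-forming kainate receptor subunit, was at 92.7, 96.0 and 93.8 CPM in vitrified hippocampus, against 74.0, 72.5 and 76.3 CPM in fresh hippocampus. The libraries did not overlap, and the log2 fold change was 0.33 ± 0.04 (SE; edgeR, adjusted p = 7.1e-11). Gria2, which sets the calcium permeability of AMPA receptors, was at 1091, 1124 and 1119 CPM in vitrified, against 989, 996 and 1021 CPM in fresh hippocampus. Its log2 fold change was 0.14 ± 0.02 (edgeR, adjusted p = 4.4e-08), again without overlap. Gria3 was at 267, 274 and 269 CPM, against 251, 247 and 250.2 CPM, and rose by 0.10 ± 0.02 on the log2 scale (edgeR, adjusted p = 0.00034).

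Gria1 went the other way. It was at 1256, 1287 and 1255 CPM in vitrified, against 1349, 1319.9 and 1321 CPM in fresh hippocampus, all vitrified libraries lying below all fresh ones. The log2 fold change was -0.08 ± 0.02 (edgeR, adjusted p = 9.3e-05), but with plain library totals for scaling it was -0.03 (edgeR, adjusted p = 0.15). Grik4, an agonist-binding partner subunit of kainate receptors, was at 95.6, 98.2 and 98.9 CPM, against 90.4, 89.5 and 93.8 CPM, a log2 fold change of 0.08 ± 0.03 (edgeR, adjusted p = 0.0375). That call was lost in 8 of the alternative analyses, among them DESeq2 (adjusted p = 0.143).

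For the other 4 genes vitrified hippocampus did not differ past the threshold. Gria4 was at 68.0 to 71.8 CPM in vitrified, against 64.7 to 68.3 CPM in fresh tissue, and Grik3 at 49.1 to 53.4, against 46.6 to 51.0 CPM. Grik1 was at 10.6 to 11.4, against 10.9 to 12.4 CPM. The libraries of these 3 genes overlapped. Grik5 was at 336 to 340, against 320.3 to 331 CPM, without overlap (log2 fold change 0.04 ± 0.02; edgeR, adjusted p = 0.139); under offsets for GC content and transcript length it was -0.07 (edgeR, adjusted p = 0.0058), and with library totals 0.09 (edgeR, adjusted p = 0.00029), so its direction depends on the scaling. Library totals also called Gria4 (0.10; edgeR, adjusted p = 0.0233) and Grik3 (0.12; edgeR, adjusted p = 0.0216) as higher, leaving 0 genes lower under that scaling. In all, 6 of 9 genes did not overlap between vitrified and fresh hippocampus, as did 55.2% of all genes.

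Markers of several cell types moved in vitrified hippocampus beside these genes. All 10 astrocyte markers fell, with a median log2 fold change of -1.41, and they summed to 1851 to 1877 CPM in vitrified, against 5146 to 5201 CPM in fresh tissue. Of 10 excitatory neuron markers 3 rose and 2 fell (sums 7291 to 7383, against 8652 to 8805 CPM), and of 12 inhibitory neuron markers 1 rose and 4 fell (1134 to 1143, against 1148 to 1152 CPM). Of 7 dentate gyrus granule cell markers 6 rose (457 to 460.2, against 381 to 384 CPM), and of 6 CA1 field markers 3 fell (631 to 635, against 784 to 798 CPM). Of 8 CA3 and CA2 field markers 2 rose and 0 fell (446 to 453, against 426 to 436 CPM). All 8 endothelial markers rose, with a median of 0.95 (260.3 to 274, against 135 to 137 CPM). Of 8 microglial markers 7 fell and 0 rose (median -0.67; 287 to 297, against 454 to 464 CPM), and of 8 markers of oligodendrocyte precursors 5 fell and 0 rose (337 to 345, against 400.2 to 409 CPM). Of 8 oligodendrocyte markers 7 fell and 1 rose (median -0.28; 6066 to 6106, against 6000 to 6174 CPM). The part of these cell types in the receptor results was not tested.

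The second comparison asked the same of snap-frozen and fresh hippocampus. Here 5 of the 9 transcripts fell, Grik4, Gria1, Grik5, Gria2 and Gria3, and Gria4 rose. Of all 14528 genes 62.2% passed the test, 31.5% higher and 30.7% lower, so 6 of 9 is again near the background in number. The members' median log2 fold change was -0.48, against 0.01 over all genes, and their median size without sign 0.52, against 0.22. These 6 genes kept their direction and their call in every alternative run.

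Gria1 was at 739, 745 and 730.3 CPM in snap-frozen hippocampus, against 1349, 1319.9 and 1321 CPM in fresh hippocampus. Every snap-frozen library lay far below every fresh one, and the log2 fold change was -0.83 ± 0.02 (edgeR, adjusted p = 7.7e-37). Gria2 was at 705, 683 and 693 CPM, against 989, 996 and 1021 CPM (log2 fold change -0.52 ± 0.02; edgeR, adjusted p = 9.0e-28). Gria3 was at 176, 176 and 177 CPM, against 251, 247 and 250.2 CPM (log2 fold change -0.48 ± 0.02; edgeR, adjusted p = 1.2e-22). Snap-frozen and fresh libraries did not overlap for any of the 4 AMPA receptor genes, nor for 7 of the 9 genes in all, against 65.4% of all genes.

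Gria4 alone among the 9 passed the test as higher, joined by Grik1 with library totals. It was at 108, 114 and 113 CPM in snap-frozen, against 67.6, 64.7 and 68.3 CPM in fresh hippocampus, a log2 fold change of 0.75 ± 0.04 (edgeR, adjusted p = 7.0e-24). Vitrified hippocampus, at 68.0, 69.7 and 71.8 CPM, overlapped fresh hippocampus for Gria4. The Gria4 transcript in snap-frozen hippocampus came close to its cortical level of 115 to 126 CPM in snap-frozen cortex.

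Among kainate receptor genes, both partner subunits fell and the 3 that can form channels alone did not pass the test, except Grik1 with library totals. Grik4 was at 43.9, 43.3 and 43.9 CPM in snap-frozen, against 90.4, 89.5 and 93.8 CPM in fresh hippocampus, a log2 fold change of -1.05 ± 0.04 (edgeR, adjusted p = 5.0e-28). That is 0.484 of the fresh level. Grik5 was at 221, 222 and 220.3 CPM, against 328, 331 and 320.3 CPM (log2 fold change -0.55 ± 0.02; edgeR, adjusted p = 6.2e-26). Grik2 was at 69.7 to 72.7, against 72.5 to 76.3 CPM, and Grik3 at 46.1 to 49.2, against 46.6 to 51.0 CPM, both with overlap; their log2 fold changes of -0.05 and -0.03 became 0.07 and 0.09 with library totals. Grik1 was at 12.5 to 13.1, against 10.9 to 12.4 CPM, without overlap (log2 fold change 0.11; edgeR, adjusted p = 0.229), and with library totals it was at 0.23 (edgeR, adjusted p = 0.0116).

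**Figure D3:**
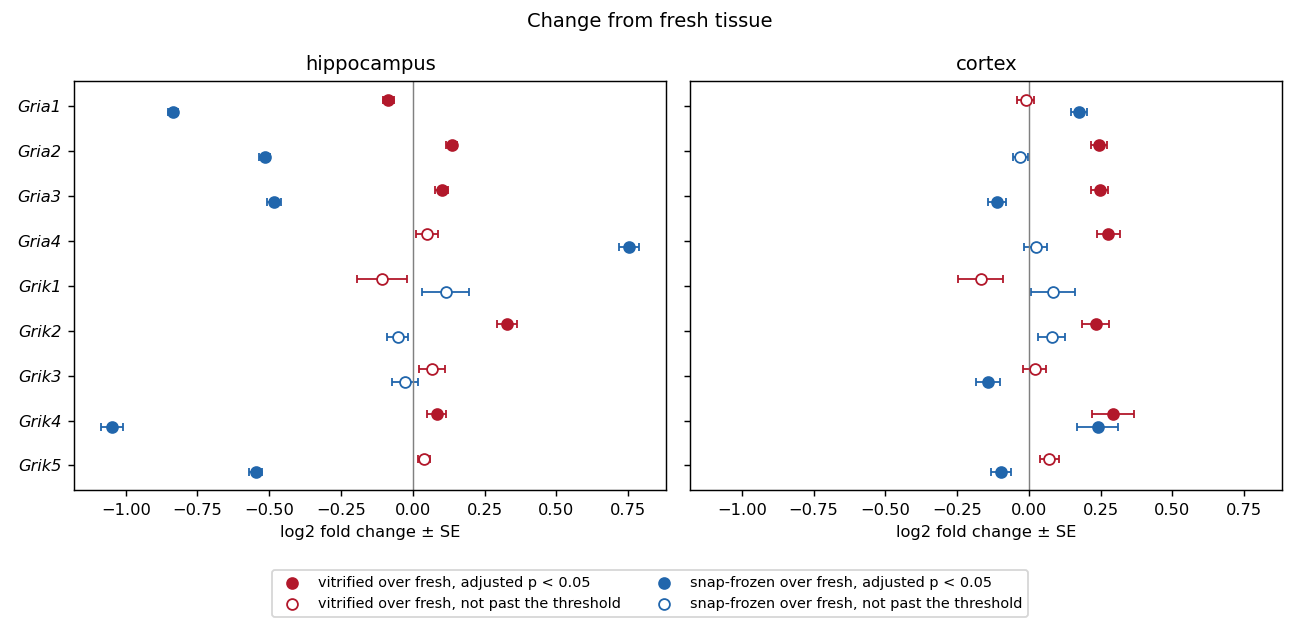
Log2 fold change from fresh tissue (x axis, with SE) of each gene in hippocampus (left) and cortex (right), vitrified above snap-frozen for each gene, from edgeR fits of 9 libraries per tissue; filled points passed an adjusted p of 0.05. Snap-frozen hippocampus spans -1.05 (Grik4) to 0.75 (Gria4), while every value for vitrified tissue and for snap-frozen cortex lies between -0.17 and 0.33.

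Region markers moved with the receptor genes in snap-frozen hippocampus. Of 7 thalamic markers 5 rose and 0 fell, with a median log2 fold change of 1.38; Tcf7l2, a transcription factor of thalamic neurons, was at 141 ± 7.70 CPM in snap-frozen, against 4.601 ± 0.857 CPM in fresh hippocampus. Slc17a6, the vesicular glutamate transporter of thalamus and other subcortical regions, was at 271 ± 7.19, against 12.1 ± 0.334 CPM. It stands in the list of excitatory neuron markers, not the thalamic list, and was the only gene of its list that rose. Slc17a7, of the same list, fell, at 716 ± 5.93 CPM in snap-frozen, against 1749 ± 5.48 CPM in fresh hippocampus. All 6 CA1 field markers fell, with a median of -1.05 and sums of 384 to 387 CPM in snap-frozen, against 784 to 798 CPM in fresh tissue. Of 8 CA3 and CA2 field markers 1 rose and 3 fell, with a median of -0.27 (386 to 401, against 426 to 436 CPM). Of 7 dentate gyrus granule cell markers 6 fell and 1 rose (286 to 305, against 381 to 384 CPM), and of 10 excitatory neuron markers 9 fell and 1 rose (4652 to 4696, against 8652 to 8805 CPM).

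Other cell types moved as well. Inhibitory neuron markers were split, with 5 of 12 higher and 7 lower (1287 to 1326, against 1148 to 1152 CPM). All 8 oligodendrocyte markers rose (9307 to 9396, against 6000 to 6174 CPM), as did all 8 endothelial markers (328 to 343, against 135 to 137 CPM) and 5 of 8 striatal markers (194 to 197, against 111 to 122 CPM). Of 10 astrocyte markers 7 rose and 3 fell (4294 to 4376, against 5146 to 5201 CPM), and of 8 microglial markers 5 fell and 0 rose (395 to 399.7, against 454 to 464 CPM). The part of these cell types and regions in the receptor results was not tested.

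**Figure D4:**
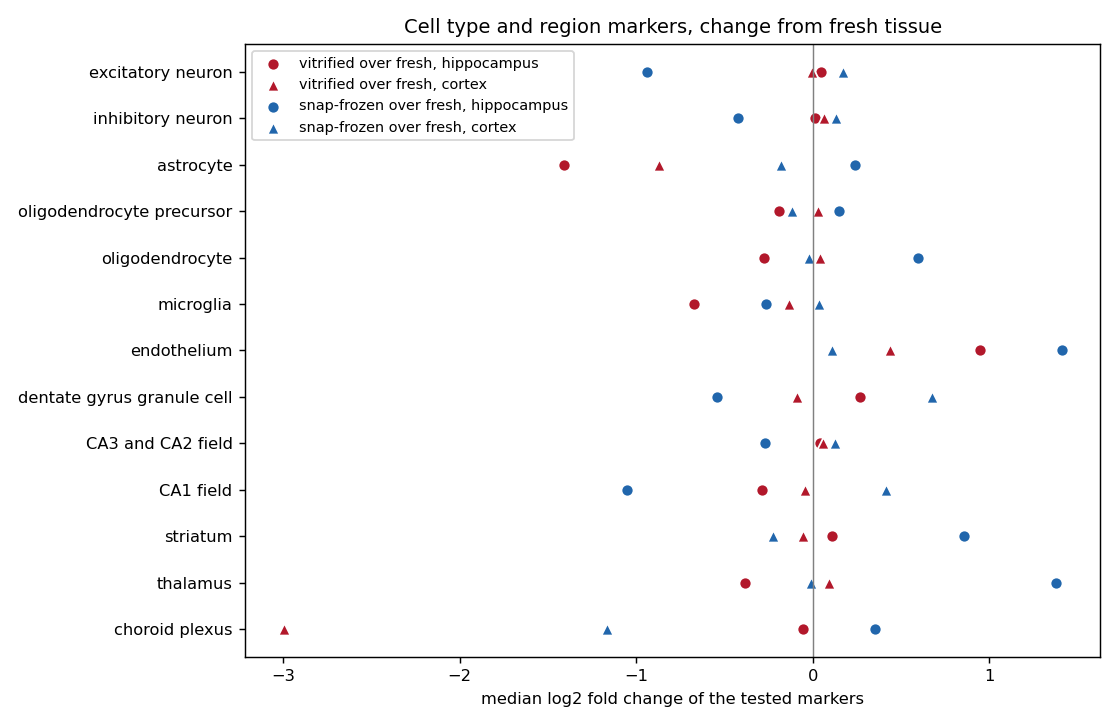
Median log2 fold change from fresh tissue (x axis) of the tested genes of 13 marker lists (y axis), for vitrified and snap-frozen hippocampus (circles) and cortex (triangles). In snap-frozen hippocampus the thalamic median is 1.38, the CA1 field median -1.05 and the excitatory neuron median -0.94, while vitrified tissue has its lowest values for astrocytes in hippocampus (-1.41) and choroid plexus in cortex (-2.99).

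Vitrified and snap-frozen hippocampus were then set against each other, with the same libraries. In vitrified tissue 6 of the 9 genes were higher and 2 lower, where 67.8% of all genes passed, 33.8% higher and 34.0% lower. Grik4 was 1.13 ± 0.04 higher on the log2 scale, followed by Gria1 (0.75 ± 0.02), Gria2 (0.65 ± 0.02), Grik5 (0.59 ± 0.02), Gria3 (0.58 ± 0.02) and Grik2 (0.38 ± 0.04), with edgeR adjusted p of 2.7e-13 or less. Gria4 was lower by 0.71 ± 0.04 (log2 fold change -0.71; edgeR, adjusted p = 7.5e-23). Grik1 was lower as well (-0.22 ± 0.08; edgeR, adjusted p = 0.0186), a call lost in 5 of 16 alternatives, with adjusted p up to 0.0828. Grik3 missed the threshold (edgeR, adjusted p = 0.0614) and passed it as higher in 5 of 16 alternatives.

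In cortex, vitrified against fresh tissue, 5 of the 9 genes rose and the other 4 did not pass the test, though with library totals 6 rose. Grik4, Gria4, Gria3, Gria2 and Grik2 rose by 1.18-fold to 1.23-fold. Of the 14470 genes tested 40.5% passed, 23.2% higher and 17.3% lower, or 3353 and 2502 genes, against 2764 and 3415 with offsets for GC content and length. The members' median log2 fold change was 0.23, against 0.03 over all genes. All 5 calls held in every alternative run.

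Gria2 was at 734, 772 and 777 CPM in vitrified cortex, against 648, 655 and 656 CPM in fresh cortex, a log2 fold change of 0.24 ± 0.03 (edgeR, adjusted p = 1.9e-08). Gria3 was at 324, 306 and 317 CPM, against 269, 268 and 275 CPM (0.25 ± 0.03; edgeR, adjusted p = 1.4e-07). Gria4 was at 143, 143 and 149 CPM, against 122, 117 and 127 CPM (0.28 ± 0.04; edgeR, adjusted p = 1.6e-06). No vitrified library of these 3 genes fell within the range of fresh cortex. Gria1, at 366 to 378 CPM in vitrified, against 377 to 383 CPM in fresh cortex, overlapped (edgeR, adjusted p = 0.802).

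Among kainate receptor genes Grik2 was at 72.9, 76.6 and 73.4 CPM in vitrified, against 68.5, 62.5 and 61.8 CPM in fresh cortex (0.23 ± 0.05; edgeR, adjusted p = 0.00019). Grik4 was at 25.4, 30.4 and 28.5 CPM, against 23.5, 23.3 and 23.2 CPM (0.29 ± 0.07; edgeR, adjusted p = 0.0017). Both were higher in every vitrified library. Grik1 was at 11.5 to 12.2, against 13.4 to 13.98 CPM, without overlap but short of the threshold (edgeR, adjusted p = 0.0947), which it passed in 2 of 16 alternatives. Grik3 and Grik5 overlapped between vitrified and fresh cortex, though Grik5 passed as higher with library totals (0.09; edgeR, adjusted p = 0.0295). In all 6 genes did not overlap, as did 52.2% of all genes.

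Beside these results, all 10 astrocyte markers fell in vitrified cortex (median log2 fold change -0.87; sums 2869 to 2932, against 5288 to 5352 CPM) and all 6 choroid plexus markers fell (median -2.99; 7.61 to 8.43, against 317 to 410.3 CPM). Of 10 excitatory neuron markers 3 rose and 1 fell (6127 to 6196, against 7106 to 7189 CPM), and of 12 inhibitory neuron markers 5 rose and 2 fell (1395 to 1411, against 1353 to 1366 CPM). Of 8 endothelial markers 7 rose and 0 fell (median 0.44; 339 to 350.2, against 243 to 255 CPM), and of 8 microglial markers 5 fell and 0 rose (413 to 418, against 451 to 463 CPM). Their part in the receptor results was not tested.

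The next comparison set snap-frozen against fresh cortex, where 5 of the 9 genes passed. Gria1 and Grik4 rose and Grik3, Gria3 and Grik5 fell, to between 0.906 (Grik3) and 1.18 (Grik4) of the fresh level, and 34.0% of all genes passed the test, 16.4% higher and 17.6% lower. Gria1 was at 422, 435 and 408 CPM in snap-frozen cortex, against 383, 377 and 382 CPM in fresh cortex (log2 fold change 0.17 ± 0.03; edgeR, adjusted p = 2.9e-05). It was thus higher in snap-frozen cortex and lower in snap-frozen hippocampus, each against fresh tissue. Gria3 was at 245, 252 and 241 CPM, against 269, 268 and 275 CPM (-0.11 ± 0.03; edgeR, adjusted p = 0.0067).

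The other calls in snap-frozen cortex were less steady. Grik4 was at 26.9, 29.8 and 24.4 CPM, against 23.5, 23.3 and 23.2 CPM (0.24 ± 0.07; edgeR, adjusted p = 0.0106), and without snap-frozen replicate 2 it was 0.16 (edgeR, adjusted p = 0.0982). Grik3 was at 100.5, 98.0 and 90.7 CPM, against 111, 108 and 106 CPM (-0.14 ± 0.04; edgeR, adjusted p = 0.0081). Grik5 was at 297, 278 and 268 CPM, against 309, 308 and 301 CPM (-0.10 ± 0.03; edgeR, adjusted p = 0.0254). Without replicate 3 of snap-frozen cortex, the library that stood apart, Grik5 was at -0.06 (edgeR, adjusted p = 0.0628) and Grik3 at -0.10 (edgeR, adjusted p = 0.0339). Offsets for GC content and length ended the calls of Grik3 (edgeR, adjusted p = 0.205) and Grik5 (0.581).

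Gria2, Gria4, Grik1 and Grik2 did not pass the test in snap-frozen cortex. Markers of several regions and cell types moved beside the receptor genes. Of hippocampal fields, 4 of 7 dentate gyrus granule cell markers rose (sums 117 to 121 CPM in snap-frozen, against 95.1 to 104 CPM in fresh cortex) and 3 of 6 CA1 field markers rose (462 to 487, against 462 to 472 CPM). Of 7 CA3 and CA2 field markers tested 4 rose and 1 fell, with sums of all 8 at 420 to 454, against 386 to 422 CPM. Of 10 excitatory neuron markers 6 rose and 1 fell (6843 to 7238, against 7106 to 7189 CPM), and of 12 inhibitory neuron markers 6 rose and 2 fell (1503 to 1535, against 1353 to 1366 CPM). Striatal markers went the other way, with 7 of 8 lower and 0 higher (1147 to 1159, against 1401 to 1407 CPM), as did astrocyte markers, with 8 of 10 lower and 1 higher (4405 to 4571, against 5288 to 5352 CPM). All 6 choroid plexus markers fell (128 to 134, against 317 to 410.3 CPM). The part of these markers in the receptor results was not tested.

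Vitrified and snap-frozen cortex differed in 8 of 9 genes, where 49.6% of all genes passed, 25.5% higher and 24.2% lower. Gria3 was higher in vitrified cortex by 0.36 ± 0.03 on the log2 scale, Gria2 by 0.27 ± 0.03, Gria4 by 0.25 ± 0.04, Grik5 by 0.17 ± 0.03, Grik3 by 0.16 ± 0.04 and Grik2 by 0.15 ± 0.05. Gria1 (-0.19 ± 0.03) and Grik1 (-0.25 ± 0.08) were lower, and Grik4 did not pass (0.05 ± 0.07; edgeR, adjusted p = 0.555). With offsets for GC content and length 5 genes passed, and Grik2, Grik3 and Grik5 did not.

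A further fit of all 18 libraries (14827 genes) asked whether a change differed between the tissues, by an interaction term. For vitrified against fresh tissue 1 of the 9 genes differed, where 12.9% of all genes did, 5.89% higher and 7.01% lower. Gria4 had a change that was lower in hippocampus than in cortex by 0.19 ± 0.06 (hippocampus minus cortex -0.19; edgeR, adjusted p = 0.0193). The call was lost without hippocampal fresh replicate 3 (edgeR, adjusted p = 0.0508), hippocampal vitrified replicate 1 (0.0521), cortical fresh replicate 2 (0.061) or cortical vitrified replicate 3 (0.052). Gria3 came next at -0.11 ± 0.04 (edgeR, adjusted p = 0.0504).

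For snap-frozen against fresh tissue 6 of the 9 genes differed between hippocampus and cortex, where 55.0% of all genes did, 28.3% higher and 26.6% lower (4202 higher and 3950 lower, 5550 and 2649 with library totals, 3256 and 5550 with GC and length offsets). Hippocampus minus cortex was -1.27 ± 0.08 for Grik4, -0.997 ± 0.03 for Gria1, -0.47 ± 0.03 for Gria2, -0.44 ± 0.04 for Grik5, -0.36 ± 0.04 for Gria3 and 0.74 ± 0.05 for Gria4, with edgeR adjusted p of 1.1e-10 or less. These 6 held in every alternative run. Grik1, Grik2 and Grik3 did not pass, with adjusted p from 0.0806 to 0.771 in edgeR. Grik3 passed as higher in several alternatives, library totals among them (0.23; edgeR, adjusted p = 0.0014), and was at -0.04 with GC and length offsets (edgeR, adjusted p = 0.593).

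The genes also differed between the tissues, and this was read within each state. Hippocampus and cortex were deposited as separate tables, so tissue and table cannot be told apart. Striatal markers summed to 111 to 122 CPM in fresh hippocampus, against 1401 to 1407 CPM in fresh cortex. Choroid plexus markers summed to 31.8 to 34.3 CPM, against 317 to 410.3 CPM. Their part in the tissue differences was not tested. In fresh tissue all 9 passed, 5 higher and 4 lower in hippocampus, where 56.4% of all genes passed, 28.5% higher and 27.8% lower. Grik4, at 91.2 ± 2.25 CPM in fresh hippocampus and 23.3 ± 0.153 CPM in fresh cortex, was higher by 1.97 ± 0.05 on the log2 scale (edgeR, adjusted p = 6.3e-31). Gria1, at 1329.9 ± 16.2 CPM in fresh hippocampus and 381 ± 3.19 CPM in fresh cortex, was higher by 1.81 ± 0.02 (edgeR, adjusted p = 7.3e-42). Grik3, at 48.6 ± 2.22 and 108 ± 2.05 CPM, was at -1.16 ± 0.04, and Gria4, at 66.9 ± 1.91 and 122 ± 5.20 CPM, at -0.86 ± 0.04.

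The tissue differences were then read in the other states. In vitrified tissue 8 genes passed, where 57.1% of all genes did, 28.5% higher and 28.6% lower, with Grik4 at 1.80 ± 0.05, Gria1 at 1.77 ± 0.02, Grik3 at -1.07 ± 0.04 and Gria4 at -1.05 ± 0.04. In snap-frozen tissue 7 passed, where 66.5% of all genes did, 35.7% higher and 30.8% lower (5291 higher and 4574 lower, 6327 and 3555 with library totals, 4181 and 5968 with GC and length offsets), with Grik4 at 0.69 ± 0.06, Gria1 at 0.81 ± 0.02, Grik3 at -1.03 ± 0.04 and Gria4 at -0.12 ± 0.04. The Gria4 call in snap-frozen tissue was lost with library totals (log2 -0.05; edgeR, adjusted p = 0.235), without hippocampal replicate 1 (0.13) and without cortical replicate 2 (0.16). Grik5 was higher in vitrified and fresh hippocampus than in cortex (0.10 ± 0.03 and 0.09 ± 0.03) and lower in snap-frozen hippocampus (-0.35 ± 0.03); the call in fresh tissue was lost with library totals (0.06; edgeR, adjusted p = 0.0684). The call of Grik1 in fresh tissue (-0.20 ± 0.08; edgeR, adjusted p = 0.0255) was lost in 4 of 16 alternatives: with no filter (edgeR, adjusted p = 0.0577), under DESeq2 (0.0858), without cortical fresh replicate 2 (0.103) and without hippocampal fresh replicate 2 (0.206).

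Genes of proteins that act on these receptors or their transcripts were read from lists by role, and a list can hold proteins of opposite effect. Beside the counts that follow, 49.1% of all genes passed the test in vitrified and 62.2% in snap-frozen hippocampus. Of 8 TARP and cornichon subunits, which carry AMPA receptors to the synapse and slow their closing, 1 rose and 4 fell in vitrified hippocampus and 3 rose and 4 fell in snap-frozen hippocampus (median log2 fold change -0.08 in each). Cnih2, a cornichon of hippocampal pyramidal cells, was at 439 ± 3.69 CPM in vitrified, 322 ± 13.2 CPM in snap-frozen and 549 ± 7.50 CPM in fresh hippocampus. Its log2 fold change from fresh tissue was -0.34 ± 0.02 in vitrified (edgeR, adjusted p = 9.2e-18) and -0.75 ± 0.02 in snap-frozen hippocampus (edgeR, adjusted p = 1.8e-31). The TARP genes Cacng2 (-0.21) and Cacng4 (-0.32) also fell in vitrified hippocampus and Cacng3 rose (0.52). In snap-frozen hippocampus Cacng4 rose (log2 fold change 0.46; edgeR, adjusted p = 7.8e-09), at 34.9 ± 3.23 CPM, against 25.7 ± 1.08 CPM in fresh hippocampus.

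Of 8 other AMPA receptor auxiliary genes 4 rose and 1 fell in vitrified hippocampus, and 3 rose and 4 fell in snap-frozen hippocampus. Shisa6, which traps AMPA receptors at synapses, was at 205 ± 5.99 CPM in vitrified, 110.3 ± 3.92 CPM in snap-frozen and 245 ± 0.162 CPM in fresh hippocampus. Of 6 genes of receptor assembly in the endoplasmic reticulum 1 rose and 1 fell in vitrified and 2 rose and 4 fell in snap-frozen hippocampus; Frrs1l, needed for that assembly, fell by 0.50 and by 0.80 on the log2 scale. Of 14 anchoring and trafficking genes 4 rose and 6 fell in vitrified and 1 rose and 9 fell in snap-frozen hippocampus, 10 of 14 in each state, which is not far above the share of all genes in snap-frozen tissue. Among them Nptxr, a membrane pentraxin that clusters AMPA receptors, was at -0.29 in vitrified and -1.48 in snap-frozen hippocampus (log2 fold change), and Nptx2, its secreted relative, at -0.87 and -0.29.

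Of 5 genes listed as kainate receptor partners 4 rose and 1 fell in vitrified hippocampus (median 0.37). In snap-frozen hippocampus 1 rose and 3 fell (median -0.90). C1ql2 and C1ql3 are secreted by mossy fibres and in mice gather kainate receptors of Grik2 and Grik4 at their synapses. C1ql2 was at 112 ± 4.92 CPM in vitrified, 39.6 ± 0.678 CPM in snap-frozen and 74.6 ± 2.46 CPM in fresh hippocampus, and C1ql3 at 231 ± 2.01, 88.0 ± 3.19 and 174 ± 6.65 CPM. The auxiliary subunit Neto2 was at 53.6 ± 0.915, 67.0 ± 2.48 and 66.3 ± 1.86 CPM, a fall of 0.32 in vitrified tissue (log2 fold change -0.32), and did not pass the test in snap-frozen tissue (edgeR, adjusted p = 0.522). Klhl17 rose in both states, at 50.2 ± 1.45 CPM in vitrified, 44.9 ± 1.62 CPM in snap-frozen and 38.4 ± 2.70 CPM in fresh hippocampus.

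Of the 3 listed genes of the ADAR family 1 rose and 1 fell in vitrified hippocampus, and 3 rose in snap-frozen hippocampus. Adarb2 was at 33.2 ± 2.91 CPM in vitrified, 26.6 ± 0.795 CPM in snap-frozen and 22.2 ± 0.768 CPM in fresh hippocampus. It also stands in the list of inhibitory neuron markers and is counted there as well. Adarb1, the deaminase that edits the Gria2 codon printed above, was at 171 ± 0.458 CPM in vitrified, 269 ± 12.4 CPM in snap-frozen and 200.3 ± 1.91 CPM in fresh hippocampus. Its log2 fold change from fresh tissue was -0.24 in vitrified and 0.44 in snap-frozen hippocampus. In cortex it was at 196 ± 2.62, 203 ± 6.07 and 247 ± 3.58 CPM.

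The same lists were counted in cortex, where 40.5% of all genes passed in vitrified and 34.0% in snap-frozen tissue. In vitrified cortex 1 of 8 TARP and cornichon genes was higher and 3 lower. In the same order, 4 and 1 of 8 other AMPA receptor auxiliary genes and 1 and 2 of 6 assembly genes passed. Of 14 anchoring genes 4 and 6 passed, of 5 kainate receptor partners 2 and 1, and of 3 ADAR family genes 1 and 1. In snap-frozen cortex the same lists had 2 and 3, 1 and 2, 2 and 0, 2 and 4, 2 and 1, and 0 and 2. C1ql2, at 2.86 ± 0.692 CPM in vitrified, 8.48 ± 0.512 CPM in snap-frozen and 2.27 ± 0.407 CPM in fresh cortex, had a log2 fold change of 1.92 in snap-frozen cortex, where dentate gyrus granule cell markers were also higher. The lists were chosen for their roles, and their counts were not tested as sets.

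For each of the 9 genes, the most similar patterns, up to 2 of them, were sought among 11696 genes with a mean of at least 5 CPM, as the Pearson correlation of log2 CPM over 18 libraries after centring each tissue. The libraries fall into separate states, which set most of these values, so they are descriptions. Gria1 was most like Sv2b (r = 0.996), a synaptic vesicle protein of excitatory neurons that stands in the marker list of that cell type, and Ap2a2 (0.994). Gria2 was most like Chrd (0.991), Gria3 like Col6a1 (0.993) and Rnf112 (0.989), and Gria4 like Sept4 (0.981) and Lgi3 (0.977). Grik4 was most like Opcml (0.987) and Pcdh8 (0.985), and Grik5 like 2010300C02Rik and Tnks1bp1 (0.994 each). Likeness was lower for Grik2 (Sf3b1, 0.957, and Zfp810, 0.949), Grik1 (Atl2, 0.908, and Glo1, 0.899) and Grik3 (Pml, 0.870, and Sf1, 0.865).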

How the data were processed

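Poly(A) RNA was sequenced from strand-marked (dUTP) libraries on a DNBSEQ instrument, per the labels' protocols. The values are expected counts for every gene, made by the authors from aligned reads and deposited as 1 table per tissue, per the labels; some are fractional. Alignment used HISAT2 2.0.4 and GRCm38.p6 is the build, per the submitters' processing notes. Which counter, strand setting and annotation were used is not given in the sources used here. Positions, lengths and sequences came from GENCODE M21.

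Expected counts were rounded and tested with edgeR 4.0.16 in R 4.3.3 (quasi-likelihood, TMM factors, default filter by group), fitted to the 9 libraries of a tissue or to all 18 for tissue contrasts and interactions. The fits covered 14528, 14470 and 14827 genes, with Benjamini-Hochberg adjustment over all of them and 0.05 as threshold. The method was tested on counts simulated for hippocampus, in which a small part of the genes changed. Such data cannot test the choice of scaling where many genes change. CPM in the text are TMM-scaled over all 18 libraries. All 9 genes passed the filter in every fit. Comparisons of a tissue share libraries: those with fresh tissue share its 3 libraries.

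Alternatives were RLE factors, library totals, no filter, 1 CPM in 3 libraries, DESeq2 1.42.0, limma-voom (limma 3.58.1), compared groups alone, a replicate block, offsets for GC content and length, both together, and each library left out. The 9 genes, all lists and the rule for named genes (all 9; up to 4 companions per list with the smallest p in vitrified tissue; the first 2 markers of a list) were chosen with earlier results of these data known. Some genes that the rule takes are left out of the text. Same-numbered libraries did not deviate together and were not treated as pairs.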

Additional observations from a re-analysis of the deposited data

Results flagged for a closer look

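The difference between tissues was itself past the threshold for 7 results, tested as the change in hippocampus minus the change in cortex (edgeR interaction). Of all 14827 genes 55.0% passed this test for snap-frozen and 12.9% for vitrified tissue. The members' counts, 6 of 9 and 1 of 9, are near these shares. For snap-frozen against fresh tissue the genes were Grik4 (-1.27), Gria1 (-0.997), Gria2 (-0.47), Grik5 (-0.44), Gria3 (-0.36) and Gria4 (0.74), all on the log2 scale. Gria1 fell in snap-frozen hippocampus (-0.83) and rose in snap-frozen cortex (0.17), as did Grik4 (-1.05 and 0.24). For vitrified against fresh tissue it was Gria4 (-0.19), which rose in cortex (0.28) and was at 0.05 in hippocampus. Thalamic, CA1 field and excitatory neuron markers differed between tissues in the same contrast of snap-frozen and fresh tissue, with 5 of 7 higher and 0 lower, 0 higher and 6 of 6 lower, and 1 higher and 9 of 10 lower in hippocampus minus cortex. All 8 oligodendrocyte, all 8 endothelial and all 8 striatal markers were higher in that contrast, 7 of 10 astrocyte markers were higher and 3 lower, and 6 of 7 dentate gyrus granule cell markers were lower and 1 higher. Of 8 CA3 and CA2 field markers 2 were higher and 4 lower. In the contrast of vitrified and fresh tissue, beside Gria4, 9 of 10 astrocyte, 6 of 8 oligodendrocyte and 6 of 8 microglial markers were lower and 0 higher, and all 8 endothelial markers were higher. Their part in these differences was not tested.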

How the results depend on the processing

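Of the 99 log2 fold changes of the 9 genes (11 comparisons each), 68 passed the test. Of all genes 12.9% to 67.8% passed, depending on the comparison. The comparisons share libraries, so the 99 values are not separate results. Of the 68, 55 kept direction and call in every alternative run, 13 lost the call in at least 1, and 0 changed direction. The number of the 9 genes called moved by over 1.5 times in 3 comparisons. For snap-frozen over fresh cortex it was 3 in place of 5 with GC and length offsets, alone or with the replicate block, and 3 to 5 with a library left out. For vitrified over snap-frozen cortex it was 5 in place of 8 with these offsets, alone or with the block. For the vitrified interaction it was 2 in place of 1 with library totals, 1 CPM in 3 libraries, limma-voom, compared groups only, and GC and length offsets (alone or with the block), and 0 to 3 with a library left out. With libraries left out the counts were 4 to 5, 6 and 7 to 9 in hippocampus for vitrified over fresh, snap-frozen over fresh and vitrified over snap-frozen tissue, 5 and 7 to 8 in cortex for vitrified over fresh and over snap-frozen tissue, 6 to 7 for the snap-frozen interaction, and 8 to 9, 6 to 8 and 8 for hippocampus over cortex in fresh, snap-frozen and vitrified tissue. Leaving out 1 library moved the count by over 1.5 times for snap-frozen over fresh cortex (3 without snap-frozen replicate 2) and for the vitrified interaction (0 without hippocampal fresh replicate 3, hippocampal vitrified replicate 1, cortical fresh replicate 2 or cortical vitrified replicate 3; 3 and 2 without cortical vitrified replicate 1 and 2). The longest transcript as length gave Gria2 a share of 24.4% in fresh hippocampus, in place of 20.1%.

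The replicate block gave the same counts as the fit without it in all 11 comparisons (5, 6 and 8 in hippocampus, 5, 5 and 8 in cortex). Same-numbered libraries had correlations of their deviations from -0.197 to 0.153, so the numbers were not taken as pairs.

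Signs turned in 35 cases, all of fold changes that had not passed the test; the cause was not tested. With GC and length offsets, alone or with the replicate block, these were vitrified over fresh hippocampus for Grik5 (-0.068 in both), vitrified over fresh cortex for Grik3 (-0.021 and -0.020), vitrified over snap-frozen cortex for Grik4 (-0.015 in both), the vitrified interaction for Gria2 (0.015 in both) and Grik5 (-0.015 in both) and the snap-frozen interaction for Grik1 (-0.100 and -0.099) and Grik3 (-0.038 in both). With library totals they were Grik2 (0.068) and Grik3 (0.093) in snap-frozen over fresh hippocampus and Gria1 (0.0055) in vitrified over fresh cortex. Grik3 in vitrified over fresh cortex was -0.000851 with RLE factors, -0.0045 with no filter, -0.000797 with DESeq2 and -0.0047 with compared groups only. Grik5 in the vitrified interaction was -0.0052 with no filter and -0.0017 with 1 CPM in 3 libraries, and ran from -0.021 to 0.011 with a library left out, turning in 6 fits. With a library left out, Grik3 in snap-frozen over fresh hippocampus ran from -0.059 to 0.0057, Gria4 in snap-frozen over fresh cortex from -0.0072 to 0.063, Grik4 in vitrified over snap-frozen cortex from -0.015 to 0.13, and Grik1 in the snap-frozen interaction from -0.022 to 0.096.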

Other observations

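Grid1 is a delta receptor gene, a relative of AMPA and kainate receptors that binds cerebellin-type organisers. It fell in vitrified hippocampus, with a log2 fold change of -0.12 (edgeR, adjusted p = 0.0056), and in snap-frozen hippocampus (-0.23; edgeR, adjusted p = 1.0e-06), each against fresh tissue. In vitrified cortex it was at -0.04 (edgeR, adjusted p = 0.463), and in snap-frozen cortex it fell (-0.17; edgeR, adjusted p = 0.0050).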
